A study of Mus musculus with 9 samples.

Results

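Satellite glia are the glial cells that wrap the cell bodies of sensory neurons in the dorsal root ganglion (DRG), and 8 genes commonly used as their markers were followed here in DRGs of E18.5 mouse embryos. They are Fabp7, Apoe, Glul, Slc1a3, S100b, Erbb3, Sox2 and Ednrb, chosen by symbol as the rows of the deposited count table that carry these names. All 8 were found among the 55247 genes of the table, and all 8 were among the 13200 genes that reached 100 counts in at least 1 library and were tested. The ganglia came from WT embryos, from Isl1Cre/+ embryos and from Isl1Cre/+::Meis2LoxP/LoxP embryos, called mutant below, with 3 libraries for each of the 3 genotypes. Isl1Cre/+ embryos carry Cre at the Isl1 locus on 1 allele and no floxed Meis2. The mutant embryos carry the same Cre allele together with LoxP sites around exon 8 of Meis2 on both alleles, so the Isl1Cre/+ embryos are the controls that share the Cre. Cre is driven by the Isl1 locus, and Isl1 is a transcription factor of sensory neurons, so deletion is directed foremost to neurons. Whole ganglia were used, and neither the labels nor the methods say whether embryos were pooled or shared a litter, so p-values measure only the spread between these libraries.

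Satellite glia arise from the neural crest, as do the Schwann cells of the nerve and the neurons they enclose. They are coupled to each other, buffer potassium, and take up and recycle transmitter around the neuronal soma, which makes them the ganglion's counterpart of astrocytes. Most of their markers are shared with neighbouring cells. Erbb3, S100b and Sox2 are also present in Schwann cells and their precursors, and Apoe is also made by macrophages. In bulk ganglia, fewer cells of a type and less RNA per cell cannot be told apart.

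Meis2 and Isl1 gave the check of the labels. Meis2 had 2746 to 2919 counts in WT, 2537 to 2857 in Isl1Cre/+ and 1004 to 1084 in the mutant libraries. Meis2 was lower in mutant than in WT libraries by a log2 fold change of -1.33 (edgeR's quasi-likelihood test, Benjamini-Hochberg adjusted p = 0.00779 over 13200 genes), with no overlap. Isl1 had 6030 to 8182 counts in WT, 4840 to 5719 in Isl1Cre/+ and 4327 to 5738 in mutant libraries. The libraries held between 23854607 and 29103444 counts. The libraries WT 1 and mutant 2 stood apart, with a median rank correlation to the other 8 libraries of 0.981 and 0.979, against 0.991 to 0.995 for the remaining libraries. In WT 1 the deviations of genes from their median followed GC content most steeply (rho = 0.546 across genes, which are not independent).

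The windows upstream of the start were read from RefSeq (GRCm38.p6), which held 7 of the 8 genes, Erbb3 being the one without an entry. For 6 genes the window lay before the gene start in both RefSeq and GENCODE M21 and was searched on both strands for ACAAAG and ACAATG, words bound by Sox proteins such as Sox2 itself. Apoe had 2 matches and Sox2 had 1, whereas the windows of Fabp7, Glul, Slc1a3 and S100b had none. Among all 32851 promoter windows of 250 bases, 25.2% held at least 1 of these words, 16.5% ACAAAG and 10.7% ACAATG. A match of these letters is a description of the window only. The Apoe and Sox2 windows are shown because they hold the words, and the Glul and Slc1a3 windows because this pair had the correlation in CPM with the smallest p (below). Capitals mark the matched words, and each sequence reads 5′ to 3′ along the gene's strand.
Apoe, chr7:19699189-19699438, minus strand: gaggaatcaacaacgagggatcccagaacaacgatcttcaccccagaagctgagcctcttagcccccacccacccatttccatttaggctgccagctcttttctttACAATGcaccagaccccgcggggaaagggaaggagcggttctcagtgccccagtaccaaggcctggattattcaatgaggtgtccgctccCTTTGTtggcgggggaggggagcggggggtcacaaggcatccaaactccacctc
Sox2, chr3:34649745-34649994, plus strand: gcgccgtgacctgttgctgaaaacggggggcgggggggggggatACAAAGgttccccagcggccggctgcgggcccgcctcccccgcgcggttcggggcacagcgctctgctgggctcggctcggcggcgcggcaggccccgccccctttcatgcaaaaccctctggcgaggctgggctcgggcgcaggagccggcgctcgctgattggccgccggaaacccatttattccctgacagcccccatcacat
Glul, chr1:153899679-153899928, plus strand: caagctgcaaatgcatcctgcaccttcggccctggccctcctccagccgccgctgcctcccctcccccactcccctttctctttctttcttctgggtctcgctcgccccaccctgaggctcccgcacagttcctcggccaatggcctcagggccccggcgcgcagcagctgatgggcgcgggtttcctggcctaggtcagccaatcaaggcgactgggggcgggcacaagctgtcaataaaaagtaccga
Slc1a3, chr15:8710808-8711057, minus strand: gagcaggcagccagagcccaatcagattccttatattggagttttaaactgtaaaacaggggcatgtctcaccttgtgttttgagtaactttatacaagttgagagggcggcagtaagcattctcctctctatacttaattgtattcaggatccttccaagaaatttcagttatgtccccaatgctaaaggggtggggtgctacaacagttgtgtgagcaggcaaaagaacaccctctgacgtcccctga
In Apoe the words lay 144 to 139 bases before the end of the window, as ACAATG on the gene's strand, and 54 to 49 bases before it, as ACAAAG on the opposite strand. In Sox2 the word ACAAAG lay 206 to 201 bases before the end of the window, on the gene's strand.

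On a scale that corrects for length (TPM, the counts divided by exonic bases and scaled to the same sum in each library), the members spanned a wide range of levels. Apoe was the most abundant, with a mean of 1171 ± 107 TPM (SD, n = 9), followed by Fabp7 with 878 ± 33.5 TPM and S100b with 427 ± 33.8 TPM. Ednrb had 208 ± 52.2 TPM and Glul 146 ± 20.0 TPM. Erbb3 had 33.4 ± 8.74 TPM, Sox2 20.9 ± 2.45 TPM and Slc1a3 7.88 ± 3.68 TPM. The first 3 were thus separated in every library from each other and from the rest. Of neighbours in this order, Ednrb and Glul overlapped in range, with Ednrb the higher in 8 of 9 libraries. Erbb3 and Sox2 also overlapped in range, although Erbb3 was the higher in 9 of 9 libraries. Values by library below are levels in CPM (counts scaled to library size with TMM factors), which compare libraries but not genes. For any given gene, TPM and CPM differ between libraries only by a factor common to all genes of a library. TPM carries no TMM factors, so between libraries it is a change of normalization and corrects nothing by length.

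No satellite glia gene passed the test between genotypes in any of the 3 comparisons. A gene was called where its fold change was at least 1.2 and its unadjusted p under 0.05 (the study's criterion, applied to edgeR's quasi-likelihood test). By this rule 0 of 8 members were called in mutant against WT, where 0.318% of the tested genes were called (42 of 13200). In mutant against Isl1Cre/+ 0 of 8 members were called and 1.67% of all genes (221 genes), and in Isl1Cre/+ against WT 0 of 8 members and 1.4% (185 genes). None of the 8 had an unadjusted p under 0.05 in these fits, nor with limma voom or DESeq2. A count of 0 among 8 is near these shares of all genes, and the intervals give the sizes that remain possible. The 95% interval of the fold change lay within 1.5-fold in either direction for 5 of 8 members in mutant against WT, 6 in mutant against Isl1Cre/+ and 4 in Isl1Cre/+ against WT. For all but Slc1a3 it lay within 2-fold in each comparison. The median log2 fold change of the 8 was -0.04, 0.10 and -0.13 in the 3 comparisons in this order, beside -0.01, 0.00 and 0.00 over all genes tested. These medians rested on single libraries. Without WT 1 the first became 0.08 and the third 0.01, and without mutant 2 the second became -0.01. The WT libraries enter 2 of these comparisons, as do the libraries of the other genotypes, so the 3 values are not independent. In no comparison were all libraries of a genotype above or below those of the other for any member, an arrangement that 2.76%, 7.65% and 5.66% of the tested genes showed.

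**Figure D1:**
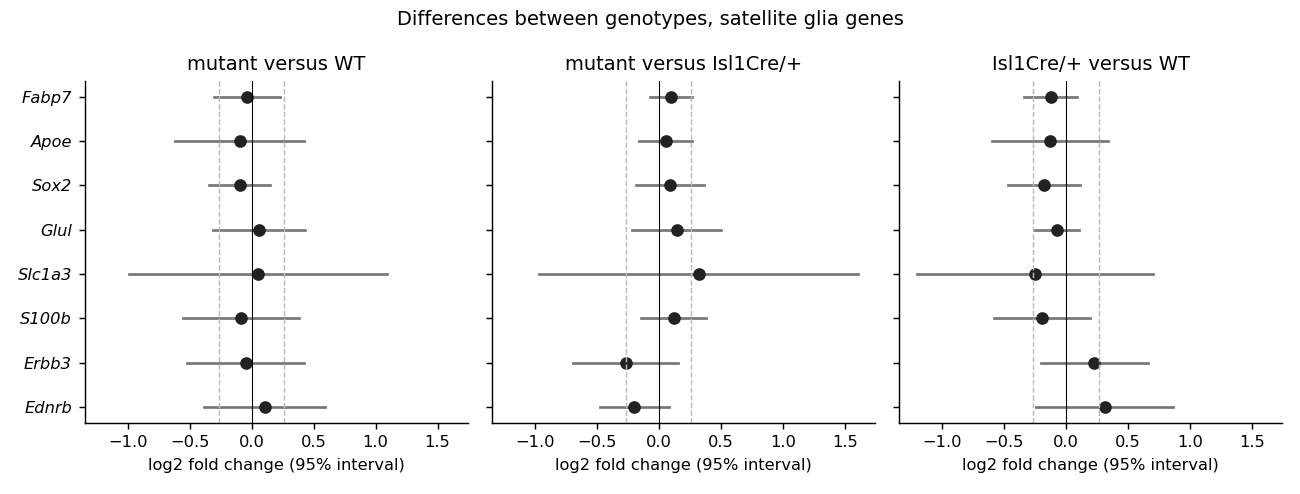
Log2 fold change (points) and 95% interval (bars) of the 8 satellite glia genes in the 3 comparisons between genotypes, from edgeR's quasi-likelihood fits of 3 libraries against 3. Dashed lines mark a fold of 1.2. Every interval holds 0, and the widest belong to Slc1a3.

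Fabp7 encodes the brain lipid-binding protein, a fatty acid carrier that marks immature glia. Its level was 352, 292 and 289 CPM in WT, 284, 273 and 291 CPM in Isl1Cre/+ and 330, 292 and 289 CPM in mutant libraries. WT 1 and mutant 1 were the highest, and the other 7 libraries lay close together in all genotypes. This order depended on the normalization, and in TPM, without TMM factors, it was lost. Fabp7 then had 843, 908 and 917 TPM in WT, 891, 845 and 895 TPM in Isl1Cre/+ and 883, 821 and 901 TPM in mutant libraries. WT 1 was the second lowest on that scale, by a shift that all genes of WT 1 share. The log2 fold change of mutant over WT was -0.04 ± 0.11 (SE), that of mutant over Isl1Cre/+ 0.10 ± 0.07 and that of Isl1Cre/+ over WT -0.12 ± 0.09. Without WT 1 the first turned to 0.06 and the last was -0.05. Without mutant 2 the first turned to 0.01, and without mutant 1 the second was 0.03. Fabp7 (chr10:57784881-57788450, plus strand, 4 exonic blocks of 1250 bases in all) was the steadiest member, with a coefficient of variation over 9 libraries of 8.3%, against a median of 9.61% for all tested genes.

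Apoe encodes the lipoprotein that carries cholesterol from glia to neurons. It had 1008, 586 and 586 CPM in WT, 687, 626 and 654 CPM in Isl1Cre/+ and 733, 707 and 602 CPM in mutant libraries. WT 1 stood far above all others, so that the mean of WT, 727 ± 243 CPM (SD, n = 3), was the highest of the genotypes while the other 2 WT libraries were the lowest of the 9. The log2 fold change of mutant over WT was -0.09 ± 0.22 (SE), and without WT 1 it was 0.22 (unadjusted p = 0.0837 in edgeR's quasi-likelihood test). Over Isl1Cre/+ libraries Apoe differed by 0.05 ± 0.09 in the mutant, and by -0.01 without mutant 1. Isl1Cre/+ over WT gave -0.13 ± 0.20, and 0.15 without WT 1, under the fold of a call. The gene lies at chr7:19696109-19699188 on the minus strand and has the highest GC content of the members, 59.5% of its 2138 exonic bases, beside a median of 49.5% for all tested genes.

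Sox2 is the transcription factor that keeps glia and their progenitors undifferentiated. Its level was 12.95, 11.8 and 12.7 CPM in WT, 11.9, 9.22 and 11.6 CPM in Isl1Cre/+ and 11.3, 11.4 and 12.2 CPM in mutant libraries. Isl1Cre/+ 2 was the lowest, and the other libraries of the 3 genotypes were interleaved. Its log2 fold change was -0.10 ± 0.11 (SE) in mutant over WT, 0.09 ± 0.12 in mutant over Isl1Cre/+ and -0.18 ± 0.12 in Isl1Cre/+ over WT. Without Isl1Cre/+ 2 the second turned to -0.01 and the last was -0.07. Sox2 is a gene of a single exon (chr3:34650405-34652461, plus strand, 2057 bases). It rested on 258 to 364 counts per library, so that counting error alone gives a coefficient of variation of 5.59%, above the 4.84% seen within WT and the 4.34% within mutant libraries but below the 13.5% within Isl1Cre/+ libraries.

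**Figure D2:**
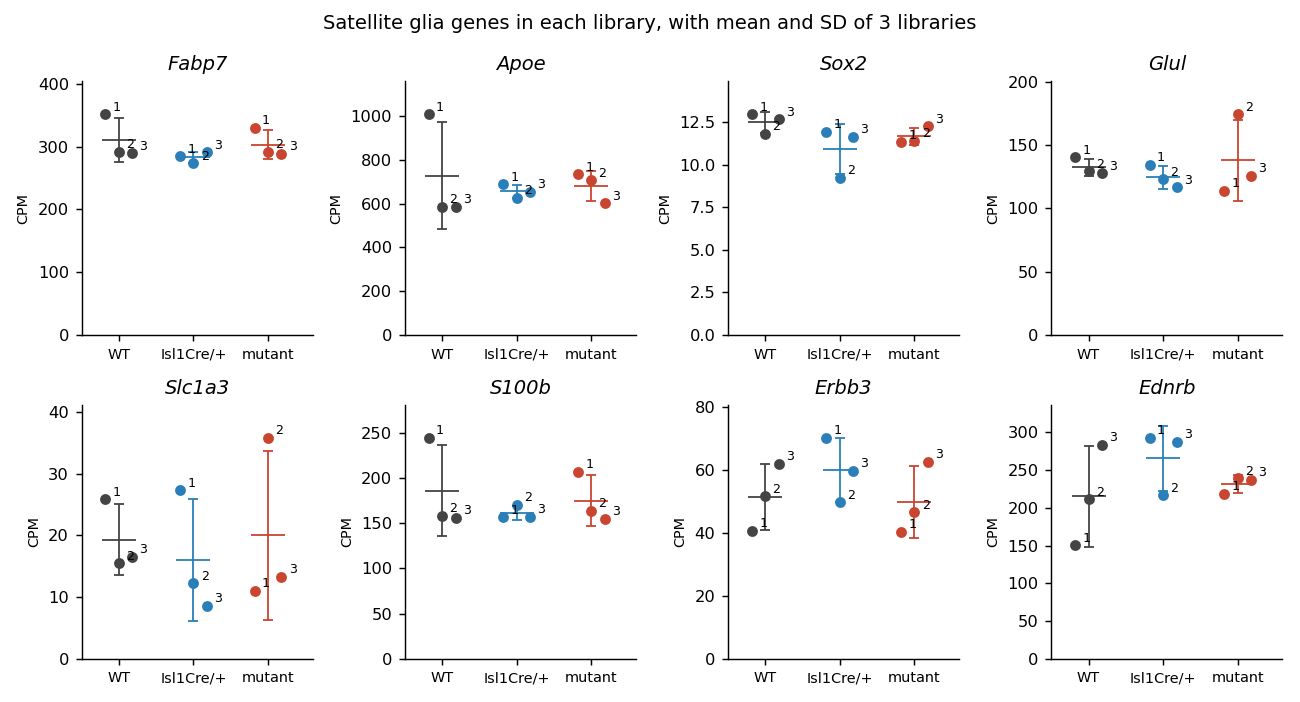
Level in CPM (vertical axes, from 0) of the 8 satellite glia genes by genotype. Points are libraries with their replicate number, horizontal marks the mean and bars the SD of 3 libraries. The genotypes overlap in every panel, and single libraries such as WT 1 for Apoe and mutant 2 for Slc1a3 set the width of a group.

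Glul encodes glutamine synthetase, which turns glutamate and ammonia into glutamine. It had 140, 130 and 128 CPM in WT, 135, 123 and 117 CPM in Isl1Cre/+ and 114, 174 and 126 CPM in mutant libraries. The mutant libraries held both the highest value, in mutant 2, and the lowest, in mutant 1. Between genotypes the log2 fold change was 0.06 ± 0.16 (SE) in mutant over WT, 0.15 ± 0.15 in mutant over Isl1Cre/+ and -0.07 ± 0.08 in Isl1Cre/+ over WT. The first 2 rested on mutant 2, and without it both turned, to -0.12 and -0.05. Glul (chr1:153899944-153909723, plus strand) has 3323 exonic bases, 116 of which overlap a gene on the opposite strand and 93 one on the same strand. How reads in that overlap were assigned is not known, since the strand setting is not given in the sources used here.

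Slc1a3 encodes GLAST, the glutamate transporter through which satellite glia clear glutamate. It was the member with the largest spread, with 25.9, 15.5 and 16.6 CPM in WT, 27.3, 12.3 and 8.57 CPM in Isl1Cre/+ and 11.01, 35.8 and 13.3 CPM in mutant libraries. In each genotype 1 library stood above the other 2, namely WT 1, Isl1Cre/+ 1 and mutant 2. The highest library had 4.18 times the level of the lowest, and its coefficient of variation over the 9 libraries, 49.4%, was above that of 98.0% of the tested genes. The log2 fold change of mutant over WT was 0.06 ± 0.44 (SE), with a 95% interval from -0.99 to 1.1. It was 0.32 without WT 1 and turned to -0.64 when mutant 2 was left out, which would be a call (unadjusted p = 0.0298 in edgeR's quasi-likelihood test), but not after Benjamini-Hochberg adjustment. With WT 1 and mutant 2 both left out it was -0.39 (unadjusted p = 0.0185, adjusted p = 0.975, edgeR's quasi-likelihood test). Mutant over Isl1Cre/+ gave 0.32 ± 0.55, and ranged from -0.39 without mutant 2 to 0.94 without Isl1Cre/+ 1. Isl1Cre/+ over WT gave -0.25 ± 0.41, and -0.01 without WT 1. It was -0.87 without Isl1Cre/+ 1 (unadjusted p = 0.0158 in edgeR's quasi-likelihood test), which did not pass adjustment either. The direction for Slc1a3 (chr15:8634124-8710764, minus strand, 13 exonic blocks of 8537 bases) therefore rested on single libraries in all 3 comparisons.

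S100b encodes a calcium-binding protein of glia that is also used to stain Schwann cells. It had 244, 158 and 156 CPM in WT, 156, 170 and 157 CPM in Isl1Cre/+ and 207, 163 and 155 CPM in mutant libraries. As for Fabp7, WT 1 and mutant 1 were the highest, and the other 7 libraries were within a narrow band. S100b had a log2 fold change of -0.09 ± 0.20 (SE) in mutant over WT, 0.12 ± 0.11 in mutant over Isl1Cre/+ and -0.19 ± 0.17 in Isl1Cre/+ over WT. Without WT 1 the first was 0.16 and the last 0.03. Without mutant 1 the first was -0.23 and the second turned to -0.02. S100b lies at chr10:76253853-76261159 on the plus strand, with 1484 exonic bases.

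Erbb3 encodes the neuregulin receptor on which glia of the peripheral nervous system depend. Its level was 40.7, 51.6 and 61.9 CPM in WT, 70.1, 49.7 and 59.7 CPM in Isl1Cre/+ and 40.3, 46.5 and 62.5 CPM in mutant libraries. WT 1 and mutant 1, the highest for Fabp7 and S100b, were the lowest for Erbb3. Differences in Erbb3 were, on the log2 scale, -0.05 ± 0.20 (SE) in mutant over WT, -0.27 ± 0.18 in mutant over Isl1Cre/+ and 0.23 ± 0.18 in Isl1Cre/+ over WT. The second reached -0.46 when mutant 3 was left out (unadjusted p = 0.0241, adjusted p = 0.919, edgeR's quasi-likelihood test), and was -0.14 when mutant 1 was. Without WT 1 the first was -0.19 and the third fell to 0.07. With 1 library left out the first ran from -0.24 (without mutant 3) to 0.11 (without WT 3), and it was 0.02 without mutant 2. Erbb3 lies at chr10:128567523-128589652 on the minus strand, with 28 exonic blocks and 6016 exonic bases.

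Ednrb encodes the endothelin receptor type B, which acts in neural crest cells and their glial descendants. It had 150, 211 and 284 CPM in WT, 293, 216 and 288 CPM in Isl1Cre/+ and 218, 239 and 237 CPM in mutant libraries. WT held the lowest library, WT 1, and also one near the top, while the mutant libraries lay close together in the middle. Mutant over WT gave a log2 fold change of 0.11 ± 0.21 (SE), which turned to -0.10 without WT 1 and was 0.36 without WT 3 (unadjusted p = 0.0649 in edgeR's quasi-likelihood test). That of mutant over Isl1Cre/+ was -0.20 ± 0.12, and in edgeR's quasi-likelihood test across all genes it had the smallest unadjusted p of any member, 0.137. It would be called without Isl1Cre/+ 2, at -0.33 (unadjusted p = 0.00543 in edgeR's quasi-likelihood test). Isl1Cre/+ over WT gave 0.31 ± 0.24, only 0.09 without WT 1 (unadjusted p = 0.597 in edgeR's quasi-likelihood test), and 0.57 without WT 3 (unadjusted p = 0.0268 in the same test). None of these values passed adjustment over all genes. Ednrb lies at chr14:103814625-103844402 on the minus strand, with 4266 exonic bases.

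The 8 genes did not move as a single group from library to library. Of the 28 pairs of members, 7 had a Pearson correlation of log2 CPM over the 9 libraries with an adjusted p under 0.05 (exact permutation tests, Benjamini-Hochberg over 28 pairs), 5 of them positive and 2 negative. By Spearman's rho 2 pairs did. On log2 TPM, a scale added after the values were seen, only 1 of the 28 pairs had such a p for r, that of Erbb3 and Ednrb. The change of scale shifts all genes of a library together, which alone alters the r of pairs. It shows how r depends on the normalization and is no separate test of a relation. The pair with the smallest p and the highest rho in CPM was Glul and Slc1a3, with r = 0.897 (exact permutation p = 9.1e-05, adjusted 0.00255) and rho = 0.95 (exact permutation p = 0.000353, adjusted 0.00988). It held without the 2 libraries farthest from the median of Glul, mutant 1 and mutant 2 (r = 0.962), and for deviations from the genotype means (r = 0.902). On log2 TPM its r was 0.725 (exact permutation p = 0.026, adjusted 0.121). Both genes act on glutamate, and whether this bears on the relation was not tested. With the summed level of 15 other glutamate transporter and glutamine cycle genes, r was -0.325 for Glul and -0.478 for Slc1a3. It was 0.933 and 0.937 with the leptomeninges genes below, and 0.953 and 0.854 with the macrophage genes. These values are descriptions with no test.

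Fabp7, Apoe and S100b also went together in CPM with TMM factors, but not in TPM without them. In log2 CPM they had r = 0.844 for Fabp7 and Apoe, 0.916 for Fabp7 and S100b and 0.891 for Apoe and S100b. Their exact permutation p-values were 0.0101, 0.0121 and 0.0049, or 0.0471, 0.0484 and 0.0457 after Benjamini-Hochberg adjustment. Spearman's rho was 0.45, 0.583 and 0.667, with exact permutation p-values of 0.23, 0.108 and 0.0589. These relations rested on WT 1 and mutant 1, and without these libraries r was -0.02, -0.70 and 0.24. On log2 TPM r was -0.483, -0.218 and 0.558, with adjusted exact permutation p-values of 0.364, 0.667 and 0.265, and the first 2 had turned in sign. Erbb3 and Ednrb, the receptors, went with each other (r = 0.791, exact permutation p = 0.00842, adjusted 0.0471) and against S100b. Their rho was 0.65 (exact permutation p = 0.0666), and r was 0.833 without Isl1Cre/+ 1 and mutant 1. On log2 TPM this pair had r = 0.894 (exact permutation p = 0.000182, adjusted 0.0051). The shift of whole libraries between the scales also took r of Erbb3 and Sox2 from 0.155 to 0.762. The TPM value of Erbb3 and Ednrb is therefore not a separate test of their relation. S100b and Erbb3 had r = -0.808 (exact permutation p = 0.000992, adjusted 0.0139) and rho = -0.917 (exact permutation p = 0.00131, adjusted 0.0183), and r remained -0.743 without WT 1 and mutant 1. S100b and Ednrb had r = -0.823 (exact permutation p = 0.00813, adjusted 0.0471) and rho = -0.65 (exact permutation p = 0.0666), with r = -0.54 without the same libraries. On log2 TPM these pairs had r = -0.705 and -0.774, with adjusted exact permutation p-values of 0.133 and 0.11. Sox2 reached no such p with any other member, its r in CPM with the other 7 lying between -0.05 and 0.48. The labels give no batch, so values within a batch could not be computed.

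**Figure D3:**
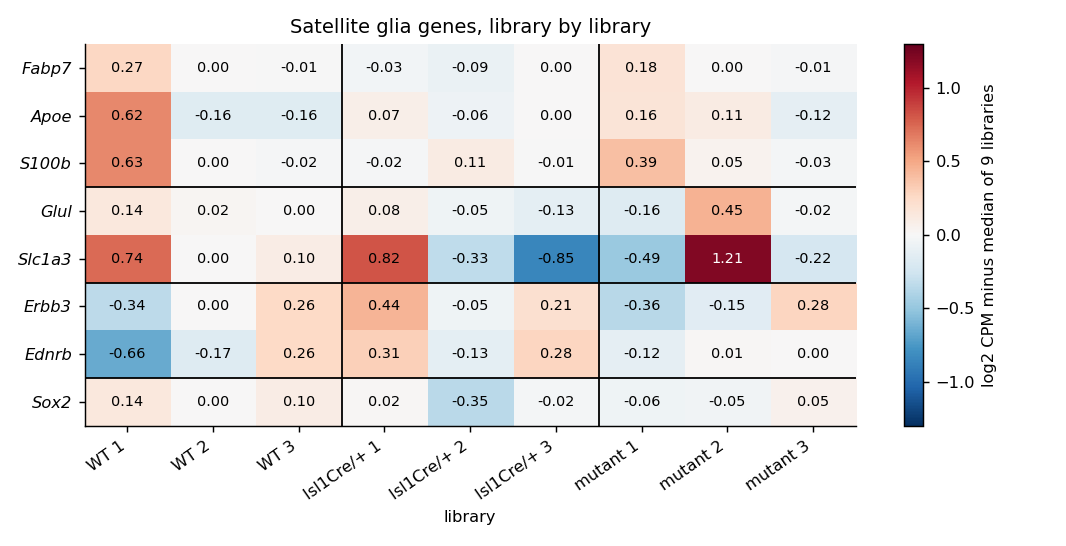
Log2 CPM of the 8 satellite glia genes minus the gene's median over the 9 libraries, with genotypes separated by vertical lines and genes grouped by the library pattern they shared in CPM. WT 1 and mutant 1 are high for Fabp7, Apoe and S100b and low for Erbb3 and Ednrb, and mutant 2 is highest for Glul and Slc1a3.

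**Figure D4:**
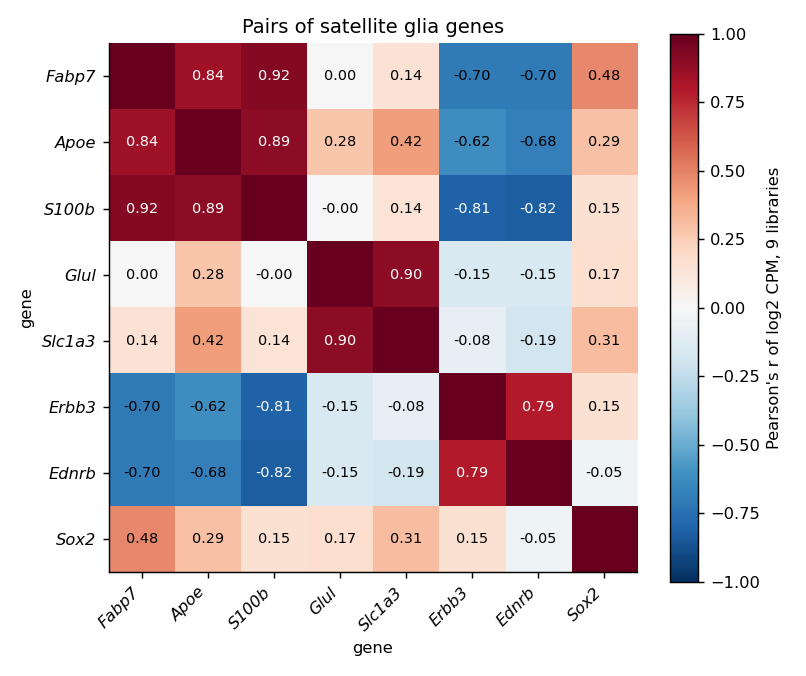
Pearson's r of log2 CPM over 9 libraries for each pair of the 8 satellite glia genes (both axes). Red marks pairs that moved together, such as Glul and Slc1a3 at 0.90, and blue pairs that moved in opposition, such as S100b and Erbb3 at -0.81.

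Markers of other cells moved with some of these patterns. A list of 10 genes of the leptomeninges, the inner membranes around the spinal cord, was added after the values were seen. Its summed level was 529 to 1204 CPM in WT, 334 to 904 CPM in Isl1Cre/+ and 460 to 2147 CPM in mutant libraries. Its highest libraries were mutant 2, WT 1 and Isl1Cre/+ 1, the same 3 that were highest for Slc1a3 and for Glul. Over 12 macrophage genes the sum was 94.0 to 113 CPM in WT, 77.2 to 107 CPM in Isl1Cre/+ and 73.8 to 178 CPM in mutant libraries, with the highest value again in mutant 2. Over 7 genes of glia of the central nervous system the sum was 70.9, 48.1 and 53.2 CPM in WT, 74.5, 45.4 and 42.7 CPM in Isl1Cre/+ and 46.1, 61.5 and 58.7 CPM in mutant libraries, highest in Isl1Cre/+ 1, WT 1 and mutant 2, again the 3 libraries highest for Slc1a3. Among them Gfap, an intermediate filament of astrocytes, had 11.06 CPM in Isl1Cre/+ 1, 8.88 CPM in WT 1 and 4.49 CPM in mutant 2, against 0.179 to 3.45 CPM in the other 6 libraries. Most of the sum came from Cspg4, Aqp4 and Aldh1l1, at means of 23.2, 18.1 and 9.53 CPM. Olig1, Olig2 and Mog had 0.784, 0.368 and 0.00456 CPM. Spinal cord neuron genes (below) summed to 0.204 CPM in Isl1Cre/+ 1, 3.12 CPM in WT 1 and 1.03 CPM in mutant 2. Whether this signal came from central glia was not tested. None of the leptomeninges and macrophage genes was without any count, and 10 of 10 leptomeninges genes and 10 of 12 macrophage genes were tested. Mutant 2 also had the highest sums of red blood cell genes (3960 CPM, against 343 to 2208 CPM in the others) and of cartilage and muscle genes (1641 CPM, against 85.7 to 761 CPM). Its fibroblast sum was the highest too (4907 CPM, against 2565 to 4530 CPM). Dividing cell genes were highest in Isl1Cre/+ 1, at 333 CPM, and next in mutant 2, at 326 CPM. WT 1 had the highest sum of 9 sensory neuron genes, 11240 CPM against 8506 to 10430 CPM in the others, and mutant 1 the second highest. The part of these cells in the levels of the satellite glia genes was not tested.

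**Figure D5:**
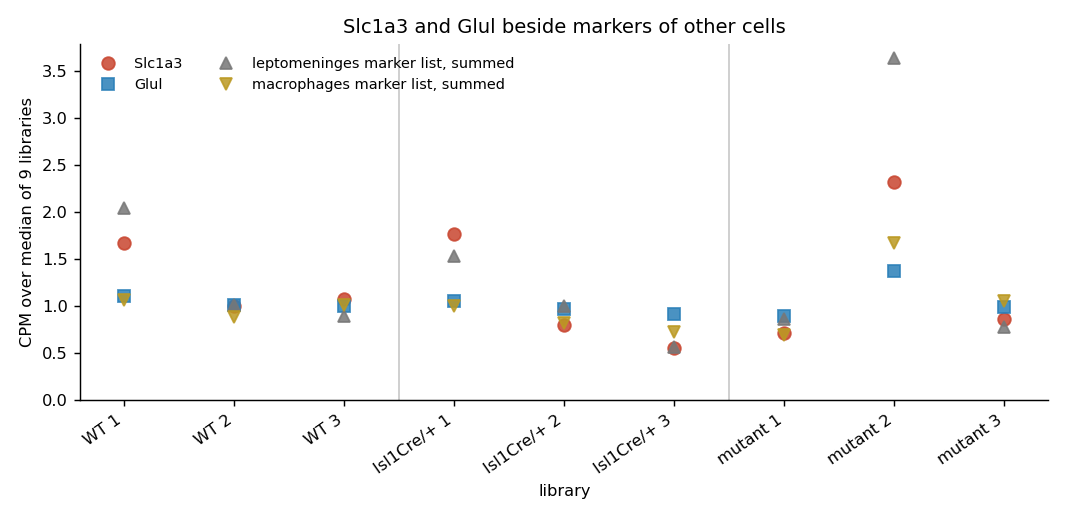
Level of Slc1a3, of Glul and of the summed marker lists of leptomeninges and macrophages in each of the 9 libraries, as CPM divided by the median of the 9 libraries (vertical axis, from 0). In mutant 2 all 4 are at their highest, with Slc1a3 at 2.31 and Glul at 1.37 times the median.

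Other genes of satellite glia and of their lineage were detected throughout and gave few calls. Of 15 such genes, all tested, 1 was called higher in Isl1Cre/+ than in WT and none in the mutant comparisons. The called gene was Matn2, an extracellular matrix protein, at 258, 231 and 251 CPM in Isl1Cre/+ against 181, 210 and 229 CPM in WT, a log2 fold change of 0.27 ± 0.11 (SE), just past the fold of a call. Its call ended in 5 of 6 fits with 1 library left out (without WT 1, WT 2 or any Isl1Cre/+ library), and without WT 1 the difference was 0.16. The gene with the highest level per length in this list was Dbi, a fatty acyl-CoA binding protein, at a mean of 647 ± 40.6 TPM (SD, n = 9). Kcnj10, the potassium channel of satellite glia, differed by -0.05 ± 0.17 in mutant over WT and had its lowest level in WT 1, as did Ednrb. The medians of the 15 log2 fold changes were 0.02 in mutant over WT, -0.10 in mutant over Isl1Cre/+ and 0.12 in Isl1Cre/+ over WT.

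The pathways around the members were likewise mostly without calls. Of 13 tested glutamate transporter and glutamine cycle genes besides Glul and Slc1a3, 0 were called in any comparison. The most abundant per length was Slc17a6, the vesicular glutamate transporter of neurons, at a mean of 335 TPM. The same count of 0 was found among 9 tested neuregulin and ErbB genes, led by Bace1 at 91.9 TPM, and among 3 tested endothelin genes, led by the endothelin-converting enzyme Ece1 at 68.9 TPM. Of the ligands, Nrg1 had a mean of 36.0 TPM and Edn3 3.63 TPM. It was found too among 18 tested genes of lipid carriers, their receptors and sterol synthesis, led by Scd2 at 1212 TPM.

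Relatives of S100b and Sox2 gave single calls. Among 6 tested S100 genes, S100a13 was higher in mutant than in Isl1Cre/+ libraries, at 28.0, 25.0 and 21.1 against 18.1, 19.2 and 20.8 CPM (log2 fold change 0.35 ± 0.12, SE), and S100a10 was the most abundant at a mean of 1316 TPM. The S100a13 call ended without Isl1Cre/+ 1 and without mutant 1. Among 4 tested SoxB and SoxE genes, Sox9, a factor of glial specification that cartilage also expresses, was called lower in Isl1Cre/+ than in WT. Its level was 2.52, 1.72 and 2.15 CPM in Isl1Cre/+ against 3.88, 3.54 and 4.48 CPM in WT (log2 fold change -0.88 ± 0.21), and 3.01, 3.99 and 3.24 CPM in mutant libraries (0.68 ± 0.22 over Isl1Cre/+, also called). The first Sox9 call was kept in 6 of 6 fits with 1 library left out, and the second ended without Isl1Cre/+ 2 and without mutant 2. Of 6 tested cartilage and muscle genes, the 4 of muscle (Acta1, the most abundant at 490 TPM, Myh3, Myh8 and Tnnt3) were called in the same directions in both comparisons. The cartilage genes Col2a1 and Acan had log2 fold changes of -0.47 and -0.95 in Isl1Cre/+ over WT, neither called, and of 0.48 (not called) and 1.12 (called) in mutant over Isl1Cre/+. With 1 library left out, the Acan call was kept in 2 of 6 fits and those of the muscle genes in 3 to 6 of 6. The part of such tissue in the Sox9 difference was not tested. Sox10, the most abundant of this family at a mean of 82.7 TPM, was not called in any comparison. None of these calls passed Benjamini-Hochberg adjustment in edgeR's quasi-likelihood test.

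Schwann cell genes, those of the nearest relatives, gave no call. Of 9 tested genes of myelinating Schwann cells (led by Pmp22 at 591 TPM) and 9 of Schwann cell precursors and immature Schwann cells (led by Gap43 at 2239 TPM), 0 were called in any comparison. The sum of the latter list was highest in WT 1 and mutant 1 (4446 and 3740 CPM) and lowest in mutant 2 (2940 CPM). The sensory neuron sum was highest and lowest in the same libraries, and the part of neurons in this list was not tested. None was called either among 10 tested macrophage genes (led by C1qb at 36.3 TPM), 10 leptomeninges genes (led by Ptgds at 1139 TPM), 6 fibroblast genes (led by Col1a1 at 690.2 TPM), 9 sensory neuron genes (led by Prph at 3924 TPM) or 6 genes of dividing cells (led by Mki67 at 47.5 TPM). Of 7 genes of glia of the central nervous system 4 were tested and 0 called, with Aqp4 the highest at 10.7 TPM and Olig1, Olig2 and Mog at 1.28, 0.496 and 0.0104 TPM. The 7 spinal cord neuron genes were all too low to be tested, the highest being Slc32a1 at 0.406 TPM. Their sum was 3.12, 2.19 and 2.22 CPM in WT, 0.204, 0.286 and 0.141 CPM in Isl1Cre/+ and 0.338, 1.03 and 2.01 CPM in mutant libraries, so that all WT libraries were above all others. The part of such tissue in the levels of the satellite glia genes was not tested. Among 9 endothelial and pericyte genes, led by Cdh5 at 118 TPM, 3 were called higher in Isl1Cre/+ than in WT (Pecam1, Kdr and Flt1) and 1, Kdr, lower in mutant than in Isl1Cre/+. With 1 library left out, the call over WT was kept in 6 of 6 fits for Flt1, 4 for Kdr and 1 for Pecam1, and the Kdr call in the mutant in 3 of 6. All 5 red blood cell genes, led by Hbb-bs at 3703 TPM, were called lower in Isl1Cre/+ than in WT and higher in mutant than in Isl1Cre/+. The latter calls were kept in 6 of 6 fits with 1 library left out, and the former in 3 to 5 of 6, all 5 ending without Isl1Cre/+ 1.

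The genes whose pattern was most like the mean of the 8 members (of z-scored log2 CPM, over 9 libraries) were led by Efnb2, the ligand ephrin-B2, with r = 0.958. They went on with Gm15427, Csad, Spg20, Ift57, Zfp503, Gm3531, Slc1a2, Armc7 and Slc3a2, with r from 0.954 down to 0.919. Slc1a2 encodes GLT-1, the other main glial glutamate transporter, and had a mean of 3.16 TPM. Taken gene by gene, a choice made after the values were seen, the nearest gene to Slc1a3 was Vtn (r = 0.988), to Glul Tmem86a (0.983), to S100b Calm2 (0.993), to Fabp7 Mrpl27 (0.988), to Apoe Bcar1 (0.987), to Erbb3 S1pr3 (0.972), to Ednrb Hcfc2 (0.975) and to Sox2 Timm10b (0.906). These were the highest of 13200 values over the same 9 libraries, and are descriptions with no test.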

How the data were processed

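RNA of DRGs from 9 libraries was extracted, selected for poly(A) and sequenced single-end by the authors, who aligned reads to mm10 (GRCm38) with STAR 2.7.10, removed duplicates with UMI-tools and obtained counts of unique alignments from HTSeq-count 0.6. The deposited table holds these counts per gene and library. The annotation release and strand setting are not given in the sources used here. Its 18 columns of the authors' own limma voom comparisons (log2 fold changes, mean expression, test statistics, p-values and log odds) were not used. The members and gene lists were chosen with earlier results of these data known.

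The 13200 genes reaching 100 counts in any of 9 libraries were normalized by TMM and fitted for each pair of genotypes alone with edgeR 4.0.16 (R 4.3.3), by the two-sided quasi-likelihood test, and p-values were adjusted by Benjamini-Hochberg over these genes. The scripts were tested on simulated data. CPM were scaled by TMM, and log2 CPM used a prior count of 2. TPM used exonic bases of GENCODE M21, whose identifiers matched 55154 of 55247 genes. Correlations used exact permutation over 362880 orders. Named were the 8 members, the 10 genes most like their mean and, from each list, called genes and the gene of highest mean TPM. Other genes named were chosen after their values were seen.

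Libraries of a genotype differed with a chi-square of 12.6 to 129 per degree of freedom, where counting error alone gives 1, so none was the same library deposited again. Whether libraries came from the same ganglia cannot be told from this. The spread between libraries rather than depth limits precision except for Sox2 within WT and within mutant libraries, where the spread was below counting error. Alternatives were other normalizations, filters and tools (DESeq2 1.42.0, limma 3.58.1), all genotypes in 1 fit, a replicate block, an adjusted p threshold, each library left out and, added after seeing the data, WT 1 and mutant 2 left out together, and correlations on log2 TPM.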

Additional observations from a re-analysis of the deposited data

How the results depend on the processing

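With all libraries kept, 0 of 8 members were called in any comparison under the 8 other normalizations, filters, tools and fits or by an adjusted p under 0.05. Of the 64 log2 fold changes in each comparison, 2 changed sign in mutant against WT (Slc1a3) and 0 in the others. With 1 library left out, 12 of 48 changed sign in mutant against WT (in every member but Sox2), 5 in mutant against Isl1Cre/+ and 3 in Isl1Cre/+ against WT. The number of members called was then 0 to 1 in each comparison. These were Slc1a3 in mutant against WT (-0.64 without mutant 2, the other way from all libraries, in a range of -0.64 to 0.35) and in Isl1Cre/+ against WT without Isl1Cre/+ 1, Ednrb in mutant against Isl1Cre/+ without Isl1Cre/+ 2 and in Isl1Cre/+ against WT without WT 3, and Erbb3 in mutant against Isl1Cre/+ without mutant 3. Without WT 1 and mutant 2 together, 1 member (Slc1a3, -0.39) and 182 genes were called in mutant against WT. The number of genes called in mutant against WT, mutant against Isl1Cre/+ and Isl1Cre/+ against WT was 42, 221 and 185, and it became 408, 1028 and 845 with no filter on low counts, where more genes are tested. It was 139 and 104 in the latter pair with 100 counts required in every library, and 1, 1 and 0 by an adjusted p under 0.05, against 49, 360 and 236 at an unadjusted p under 0.05. With 1 library left out it ranged from 40 to 132, 167 to 407 and 102 to 340. Apart from construction, the causes were not tested. With the replicate number as a replicate block it was 31, 177 and 236, with 0 members called. Libraries of the same number had correlations of their deviations from genotype means of -0.595 to 0.389. Deviations within a genotype are bound to each other, so these values cannot tell whether the numbers pair the libraries. On log2 TPM, added after the values were seen, the correlation of members turned to -0.483 for Fabp7 and Apoe and to -0.218 for Fabp7 and S100b, and of the 7 pairs past an adjusted p of 0.05 on log2 CPM 1 remained. Between libraries, TPM differs from CPM only by a factor common to all genes of a library, so this is a dependence on the normalization.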
